A study of Homo sapiens with 21 samples.

Results

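The receptor chains for interleukin 13 and interleukin 4 are 3 genes, IL13RA2, IL13RA1 and IL4R, of 18374 genes with a symbol of their own on the array. Each had a single probe set (8174598, 8169580 and 7994280), so the rule of taking the brightest probe set per gene chose nothing among them. The genes were chosen by the log2 differences between clones of this series, so those values are given as a description, without a test. Total RNA was hybridised to Affymetrix gene arrays from stable clones of the human glioblastoma line U-87MG that carried parkin, a ubiquitin ligase gene (PK7, PK19 and PK25), or the empty vector (V8, V17 and V22). Each clone is a single isolate with 3 arrays in a series, cells having been grown for 24 hours after seeding. The 9 parkin arrays and 3 arrays of V22 form what is called here the second series, and V8, V17 and 3 more arrays of V22 the first, as read from the prefixes of the array file names. Each clone was set against V22 of its own series, and comparisons within a series share those V22 arrays.

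The receptor system works with a few shared chains. IL-4 binds IL4R, which then recruits either the common gamma chain (IL2RG) or IL13RA1, and IL-13 binds IL13RA1, which then recruits IL4R. These complexes signal through JAK kinases to the transcription factor STAT6. IL13RA2 binds IL-13 tightly, has a short cytoplasmic tail that does not activate STAT6, and is known as a decoy chain. It is often abundant in glioblastoma and scarce in most normal tissue outside the testis, which has made it a target for immunotherapy.

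The arrays had medians between 6.21 and 6.37 on the log2 scale, and no columns were identical. PK25 set 3 and PK7 set 2 correlated least with the other arrays of their clone (mean r of 0.988 and 0.989), and values without them are given where a result rests on them. Of the glioma line markers, VIM, an intermediate filament gene, averaged 12.50 to 12.89 across clones and CD44, an adhesion receptor gene, 11.39 to 12.53, while GFAP, the astrocyte filament gene, was at 6.11 to 6.54, near the array medians. These markers were not level across clones. CD44 was at 0.49 in PK7, 0.90 in PK19 and 0.66 in V8 relative to V22 (limma adjusted p of 0.0028, 3.6e-06 and 4.0e-04). SOX2, a neural stem cell transcription factor gene, was at -0.97, -1.09 and -0.97 in these clones (adjusted p of 0.0029, 0.0011 and 0.0062), and NES, the nestin gene, at -0.50, -0.58 and -0.70 (adjusted p of 0.0042, 0.0011 and 4.8e-04). In PK25, which also had high IL13RA2, CD44, SOX2 and NES were at 0.06, -0.35 and 0.07, and the part of these genes in the IL13RA2 levels was not tested. PTPRC, the pan-leukocyte marker, was at 2.94 to 3.32, and none of 7 measured leukocyte markers was called in any clone, a call being a limma adjusted p under 0.05 and at least a 2-fold difference from V22. Parkin's own transcript was not analysed here.

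IL13RA2 was present at 2 widely separated levels, and both levels occurred among vector clones. It was high in all 3 parkin clones and in the vector clone V8, and low in the vector clones V17 and V22. The log2 values were 10.74, 10.42 and 10.68 in PK7, 9.43, 9.38 and 9.61 in PK19, and 10.49, 10.06 and 10.32 in PK25, against 5.10, 5.11 and 4.85 in V22 of the same series. They were 11.13, 11.04 and 11.04 in V8 and 5.19, 5.37 and 5.14 in V17, against 5.15, 5.11 and 5.38 in V22 of the first series. The lowest of the 12 high arrays lay 4.01 above the highest of the 9 low arrays, a gap of 16.1-fold with no array between. In V17 and V22 the probe set was dimmer than the median probe set of its array, at the 29.0th to 37.8th percentile. In the other 4 clones it stood at the 88.8th to 97.6th percentile. The values used here carry no detection call, so IL13RA2 is not shown to be above background in V17 and V22. If it was at background there, its differences and folds against them would be lower bounds.

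Relative to V22 of the same series, IL13RA2 was higher by 5.59 in PK7 (SE over arrays 0.13, 48.3-fold), 4.46 in PK19 (SE 0.11, 22-fold) and 5.27 in PK25 (SE 0.15, 38.7-fold). In V8 it was higher by 5.86 (SE 0.088, 57.9-fold). V17 differed from V22 by 0.02 (SE 0.11), with overlapping arrays. Among all 26947 probe sets, no other was as far above V22 in PK7, PK25 or V8, where IL13RA2 ranked 1, and in PK19 it ranked 12. A level at least 2-fold above V22 was reached by 1 of the 3 receptor chains in each of these 4 clones and by none in V17, beside 1.47% of all probe sets in PK7, 1.65% in PK19, 0.0891% in PK25, 0.594% in V8 and 0.0334% in V17. These contrasts entered the choice of the genes, so nothing is read from those shares.

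The order of the IL13RA2 clone means was V8 at 11.07 ± 0.051, PK7 at 10.61 ± 0.17, PK25 at 10.29 ± 0.22, PK19 at 9.48 ± 0.12, V17 at 5.24 ± 0.12, first-series V22 at 5.21 ± 0.14 and second-series V22 at 5.02 ± 0.15 (SD, n = 3 arrays each). PK7 and PK25 are neighbours in that order whose arrays overlapped, as are V17 and V22. V8 lay above PK7 on every array, but they were measured in different series. PK25 lay above PK19 on every array within the second series. In RNA of a whole culture, a larger share of cells with the transcript and more transcript per cell cannot be told apart.

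**Figure D1:**
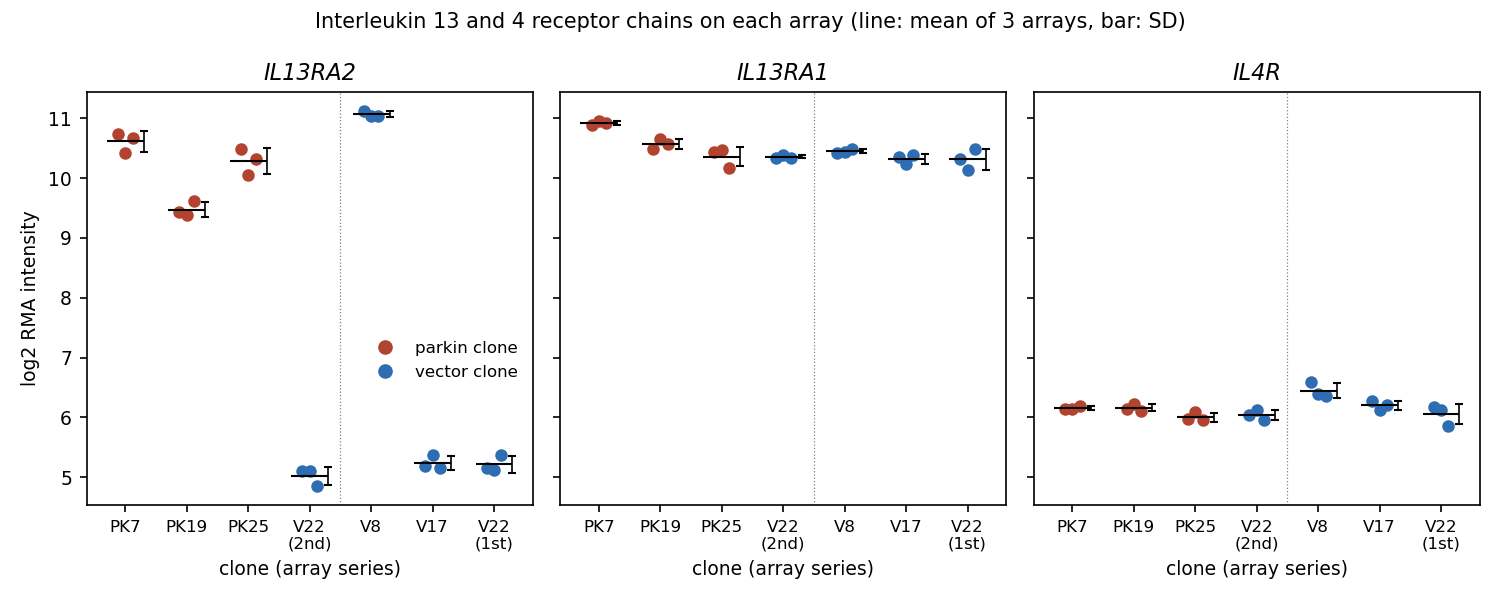
Log2 RMA intensity of IL13RA2, IL13RA1 and IL4R on each of 21 arrays, by clone, with the second array series left and the first right of the dotted line; points are arrays, lines are means of 3 arrays and bars are SD. IL13RA2 lies between 9.38 and 11.13 in PK7, PK19, PK25 and V8 and between 4.85 and 5.38 in V17 and V22, while the other chains span under 1 log2 unit.

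IL13RA1, the chain that signals for IL-13, was bright in every clone and varied little. It had 10.89, 10.95 and 10.93 in PK7, 10.49, 10.65 and 10.57 in PK19, and 10.43, 10.46 and 10.17 in PK25, against 10.34, 10.39 and 10.34 in V22 of the second series. In the first series it had 10.42, 10.44 and 10.49 in V8 and 10.35, 10.23 and 10.38 in V17, against 10.32, 10.14 and 10.49 in V22. The arrays of PK7 and PK19 lay above those of V22, and the arrays of PK25, V8 and V17 overlapped V22.

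The IL13RA1 difference from V22 was 0.56 in PK7 (SE over arrays 0.023, 1.48-fold) and 0.21 in PK19 (SE 0.049, 1.16-fold). It was -0.0037 in PK25 (SE 0.094), where set 3 was the low array and the difference without it was 0.09. It was 0.13 in V8 (SE 0.10) and 0.0061 in V17 (SE 0.11). Among all probe sets, the arrays lay above those of V22 for 15.5% in PK7, 15.5% in PK19, 7.74% in PK25, 12.2% in V8 and 5.68% in V17. The order was PK7 at 10.92, PK19 at 10.57, V8 at 10.45, V22 at 10.36 in the second series, PK25 at 10.36, V17 at 10.32 and V22 at 10.32 in the first. PK7 lay above all other arrays. PK19 at its lowest array and V8 at its highest were both near 10.49, so these neighbours were barely apart. V8 did not overlap V22 of the second series, and the neighbours below it in the order overlapped.

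IL4R, the chain shared by both cytokines, was close to the array medians throughout. It had 6.14, 6.13 and 6.19 in PK7, 6.14, 6.22 and 6.11 in PK19, and 5.97, 6.08 and 5.95 in PK25, against 6.04, 6.13 and 5.95 in V22 of the second series. In the first series it had 6.59, 6.39 and 6.35 in V8 and 6.27, 6.12 and 6.21 in V17, against 6.17, 6.12 and 5.86 in V22. V8 was the highest clone, above every other array of the first series.

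The IL4R difference from V22 was 0.39 in V8 (SE over arrays 0.12, 1.31-fold), and the arrays lay above those of V22, as they did for 12.2% of probe sets in that clone. It was 0.12 in PK7 (SE 0.055), 0.12 in PK19 (SE 0.062), -0.04 in PK25 (SE 0.066) and 0.15 in V17 (SE 0.11). Of these, PK19, PK25 and V17 overlapped V22, and the lowest PK7 array was above the highest V22 array by 0.0040. The order of means was V8 at 6.45, V17 at 6.20, PK19 at 6.16, PK7 at 6.15, V22 at 6.05 and 6.04, and PK25 at 6.00. From V17 down, neighbours in that order overlapped.

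Parkin clones were also set against vector clones. All parkin arrays were in the second series, and V8 and V17 in the first, with V22 as the only link. Parkin and series can therefore not be fully told apart. On clone means, with the first series shifted per probe set by the V22 difference between the series, IL13RA2 averaged 10.13 ± 0.59 in parkin clones and 6.98 ± 3.37 in vector clones (SD, n = 3 clones each), a log2 difference of 3.15. Without V8 the difference was 5.10, and against V22 of the second series alone it was 5.11. V8, at 10.87 after the shift, lay above all 3 parkin clones, whose means ran from 9.48 to 10.61. IL13RA1 averaged 10.62 ± 0.29 in parkin clones and 10.41 ± 0.076 in vector clones, a difference of 0.21, which was 0.34 without PK25 and 0.06 without PK7. IL4R averaged 6.10 ± 0.090 in parkin clones and 6.22 ± 0.20 in vector clones, a difference of -0.12, which was 0.0658 against V22 of the second series and -0.0080 without V8. The clone means of the groups overlapped for all 3 chains, where 12.3% of probe sets had every parkin clone above every vector clone.

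V22 was measured in both series, a contrast that was not used to choose the genes. IL13RA2 differed by -0.19 (limma SE 0.12) between V22 of the second and of the first series, IL13RA1 by 0.04 (limma SE 0.096) and IL4R by -0.01 (limma SE 0.094). The limma adjusted p over all probe sets was 0.705, 0.938 and 0.987, and 8 of 26947 probe sets (0.0297%) were called at an adjusted p under 0.05. Leaving out 1 V22 array brought that number to between 0 and 5. None of these differences approached the span of IL13RA2 among clones.

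IL13RA2 and IL13RA1 lie on chromosome X and IL4R on chromosome 16, in the RefSeq order of genes on GRCh38.p14. The nearest measured genes of IL13RA2 did not share its pattern. Over the 10 nearest measured genes on each side, the median difference from V22 was -0.01 in PK7, 0.02 in PK19, 0.0024 in PK25, -0.09 in V8 and -0.0084 in V17. Of these 20 genes, LRCH2, CHRDL1 and KLHL13 were called in any clone. The serotonin receptor gene HTR2C, the small nucleolar RNA gene SNORA35, RBMXL3 and LUZP4 differed from V22 by -0.21 to 0.38 in the 5 clones and none was called. CHRDL1, which encodes a BMP antagonist and was named after its values were seen, was lower in PK19 at -1.61 (limma adjusted p = 2.0e-06) and in V8 at -1.71 (adjusted p = 4.5e-06). AMOT, which encodes angiomotin, was at 0.90 in PK19 (limma adjusted p = 2.2e-05) and between -0.22 and 0.23 in the other clones. A call of this kind was made for 2.3% of all probe sets in PK7, 2.89% in PK19, 0.193% in PK25, 0.98% in V8 and 0% in V17 (limma, with arrays as observations).

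LRCH2, the next measured gene beside IL13RA2, which encodes a leucine-rich repeat protein, moved in all 4 clones with high IL13RA2 but not in one direction. Its log2 values were 4.13, 4.65 and 4.25 in PK7, 6.92, 7.60 and 7.30 in PK19, and 4.07, 4.43 and 4.17 in PK25, against 5.47, 6.02 and 5.78 in V22 of the second series. They were 5.17, 5.20 and 5.26 in V8 and 6.10, 6.22 and 6.18 in V17, against 6.30, 5.84 and 6.55 in V22 of the first series. PK19 was high, PK7, PK25 and V8 were low, and none of these 4 clones overlapped V22. It rose in PK19 by 1.51 (SE 0.19, limma adjusted p = 6.3e-06), and fell by 1.41 in PK7 (adjusted p = 2.1e-05), by 1.54 in PK25 (adjusted p = 1.7e-04) and by 1.02 in V8 (adjusted p = 0.0013). The fall in V8 was under 2-fold without V22 set 1 (-0.98), V22 set 3 (-0.86) or V8 set 1 (-0.998).

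**Figure D2:**
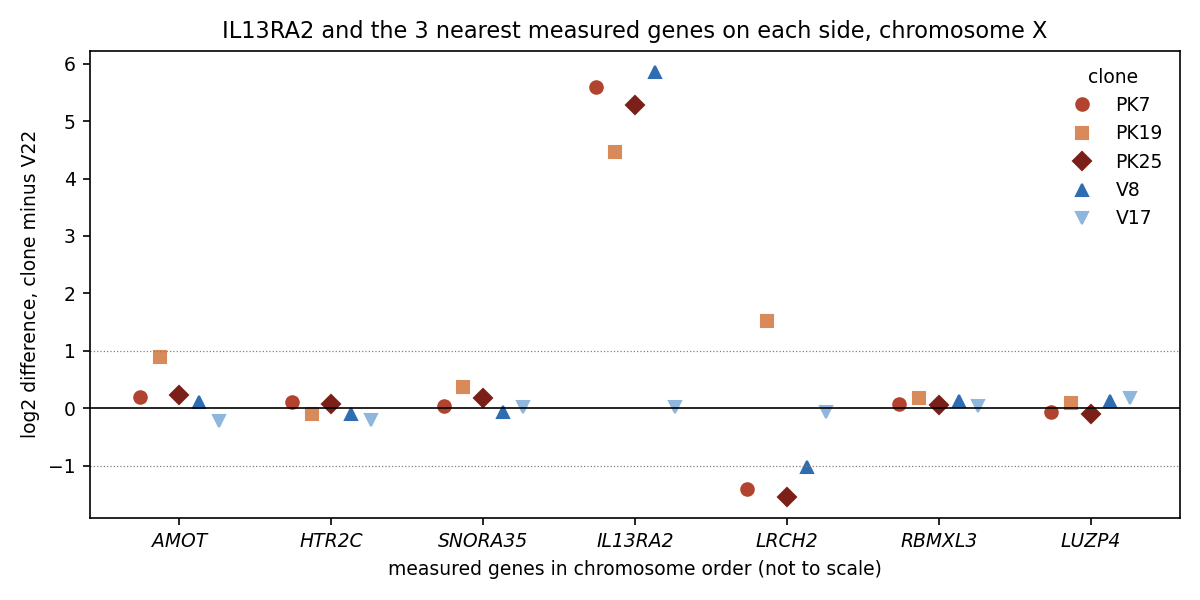
Log2 difference of each clone from V22 of its array series for IL13RA2 and the 3 nearest measured genes on each side, in chromosome order and not to scale; each symbol is the difference of means of 3 arrays, and dotted lines mark a 2-fold difference. IL13RA2 is at 4.46 to 5.86 in PK7, PK19, PK25 and V8, and LRCH2 is at 1.51 in PK19 and at -1.54 to -1.02 in PK7, PK25 and V8.

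The named neighbours of IL13RA1 and IL4R reached 2-fold in a single case. Beside IL13RA1, KLHL13, an adaptor gene of a ubiquitin ligase, fell by 1.16 in PK25 (limma adjusted p = 0.022), and DOCK11, a gene for an activator of small GTPases, was at -0.72 in PK19 (adjusted p = 0.011), under the 2-fold limit. WDR44, ZCCHC12, LONRF3 and KIAA1210 were not called in any clone and ranged from -0.43 to 0.46, with WDR44 at the upper end in V8 (adjusted p = 0.046). Beside IL4R, the receptor gene IL21R ranged from -0.02 to 0.26. GTF3C1, a gene of RNA polymerase III transcription, was at 0.57 in PK7 (adjusted p = 7.8e-05). NSMCE1 was at 0.43 (adjusted p = 0.0035) and KATNIP at 0.35 (adjusted p = 0.022) in that clone, with C16orf82 at 0.19, KDM8 at 0.09 and IL21R at 0.01. All 6 were above V22 in PK7, none of them 2-fold. C16orf82, KDM8 and IL21R did not pass limma's adjusted p (0.321, 0.769 and 0.975), and the median over all probe sets in PK7 was 0.0025. The median of the 20 nearest measured genes of IL4R was 0.19 in PK7, 0.02 in PK19, 0.06 in PK25, 0.03 in V8 and 0.06 in V17, and the one called among them was the stress response gene NUPR1, at 1.47 in PK7 (adjusted p = 4.3e-07).

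The rest of the pathway was read from 7 lists holding 105 genes other than the receptor chains, of which 95 were measured, 25 of them among the dimmest 30% of probe sets. In PK7, 4 of the 95 rose and 1 fell, in PK19 1 rose and 1 fell, and in V8 1 rose, while PK25 and V17 had none. Over all probe sets the called share was 2.3% in PK7, 2.89% in PK19, 0.193% in PK25, 0.98% in V8 and 0% in V17. The median over the 95 genes was 0.05 in PK7, 0.02 in PK19, 0.08 in PK25, 0.01 in V8 and 0.01 in V17, beside medians over all probe sets of 0.0025, -0.00045, 0.02, -0.0034 and 0.02. Without the 2-fold limit the counts were 18 for PK7, 17 for PK19, 1 for PK25, 11 for V8 and 0 for V17, beside 15.2%, 14%, 1.37%, 8% and 0% of all probe sets in that order of clones. At an unadjusted p under 0.05 they were 31, 28, 5, 20 and 2 of 95 genes in the same order, beside 25.7%, 22.6%, 11.3%, 19.2% and 2.71% of all probe sets. Between parkin and vector clones, 14 of the 95 genes had an unadjusted p under 0.05, beside 14.1% of all probe sets. None passed limma's adjusted p there (smallest adjusted p = 0.306), where 1 of 26947 probe sets did (0.00371%), probe set 8130645, which the annotation gives no gene for.

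Neither ligand was called. IL13 averaged 4.56 to 4.84 and IL4 3.03 to 3.29 in all clones, both among the dimmest 30% of probe sets, with differences from V22 between -0.18 and 0.12. Of the partner chain and the kinases, none of 5 was called. IL2RG, the common gamma chain, was dim at 4.32 to 4.58. JAK1, a kinase bound to IL4R, was at 10.42 ± 0.053 in PK19 and 10.04 ± 0.11 in V22 (SD, n = 3 arrays each), a difference of 0.38 (SE 0.086, limma adjusted p = 0.0034). TYK2, a kinase that binds IL13RA1, was at -0.29 in PK7 (adjusted p = 0.12) and 0.20 in PK19.

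None of 11 signal transducers and adapters reached 2-fold. PIK3R1, the regulatory subunit of PI3-kinase, was at -0.55 in PK7 (limma adjusted p = 0.0020), -0.37 in PK19 (adjusted p = 0.033), -0.35 in PK25 and -0.17 in V8. IRS2, an adapter that docks on IL4R, was at -0.51 in V8 (adjusted p = 0.0062) and between -0.12 and -0.06 in the parkin clones. STAT6, named after its values were seen because it is the transcription factor of the pathway, averaged 9.37 ± 0.079 in V8 and 8.87 ± 0.038 in V22 of the first series, a difference of 0.51 (SE 0.088, adjusted p = 7.9e-04). In the parkin clones STAT6 was 0.09 to 0.12 from V22. V8 had the highest mean of IL13RA2, of IL4R and of STAT6 among the clones, and PK7 that of IL13RA1. V8 was measured in a series that holds no parkin clone, and STAT6 in V22 differed by -0.22 between the second and the first series. These genes were chosen or named from their values, so no joint rise is read from this order.

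None of 12 inhibitors reached 2-fold either. SOCS5, a member of the cytokine suppressor family that acts on IL4R, was at -0.50 in PK7 (limma adjusted p = 2.2e-04), -0.43 in PK19 (adjusted p = 8.8e-04) and -0.43 in V8 (adjusted p = 0.0020), against 0.02 in PK25. SOCS6 was at 0.50 in PK19 (adjusted p = 0.0023) and between -0.06 and 0.01 in PK7, PK25 and V8. SOCS1 and CISH, suppressors that STAT signals induce, ranged from -0.24 to 0.26 in all clones.

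Among 10 partners and downstream genes of IL13RA2, CHI3L1 was the one called. CHI3L1 encodes a secreted chitinase-like protein that binds IL13RA2. It had 11.38, 13.04 and 11.44 in PK7, 9.44, 10.34 and 9.29 in PK19, and 7.90, 10.70 and 7.97 in PK25, against 7.68, 8.92 and 7.77 in V22 of the second series. It had 8.72, 8.36 and 9.09 in V8 and 10.15, 10.58 and 9.79 in V17, against 10.14, 9.62 and 10.02 in V22 of the first series. PK7 and PK19 lay above V22, PK25 overlapped it, V17 overlapped it, and V8 lay below it.

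The CHI3L1 difference from V22 was 3.83 in PK7 (SE 0.57, limma adjusted p = 7.2e-05), 1.57 in PK19 (adjusted p = 0.080), 0.74 in PK25 (adjusted p = 0.68) and -1.20 in V8 (adjusted p = 0.26). Without PK7 set 2, the highest of its clone, the PK7 difference was 3.29 (adjusted p = 8.2e-04). V22 itself differed by -1.80 between the series (adjusted p = 0.34). In the second series the set 2 arrays of the parkin clones and V22 set 5 were the highest of their clones. If the arrays are paired in that order, the spread behind these p-values holds a shared part. Such a pairing was not tested, so the lack of a call in PK19 does not show that CHI3L1 was unchanged there. TMEM219, a membrane protein that serves as a coreceptor for CHI3L1 with IL13RA2, ranged from -0.11 to 0.27. TGFB1 was at -0.51 in PK7 (adjusted p = 0.0036) and FOSL2, a subunit of the AP-1 transcription factor, at 0.52 in PK7 (adjusted p = 0.0028), 0.53 in PK19 (adjusted p = 0.0023) and -0.41 in V8 (adjusted p = 0.027). TMEM219, TGFB1 and FOSL2 were named after their values were seen.

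Of 29 measured STAT6 target genes, 1 rose in PK7 and 1 in PK19, where 2.3% and 2.89% of all probe sets were called. None was called in PK25, V8 or V17. TGM2, the tissue transglutaminase gene, rose in PK19, with 9.51, 9.97 and 9.57 in PK19 against 7.83, 7.68 and 7.58 in V22, a difference of 1.99 (SE 0.14, limma adjusted p = 2.5e-09). It was at 1.00 in PK7 (adjusted p = 3.4e-05) and 0.84 in PK25 (adjusted p = 0.0029), both under 2-fold, and at -0.06 in V8. CCL2, a monocyte chemokine gene with a dim probe set, was called in PK7 at 1.72 (adjusted p = 0.037). Its PK7 arrays were 4.62, 7.98 and 4.60, against 4.29, 3.95 and 3.80 in V22, so 1 array, set 2, carried the difference. Without that array the CCL2 difference was 0.60 (adjusted p = 0.075), and without V22 set 4, 5 or 6 it was 1.86, 1.69 or 1.61 with limma adjusted p of 0.062 to 0.11. CCL26, a gene of the eotaxin family that is a common marker of STAT6 activity in epithelium, was named after its values were seen. It was at 0.47 in PK7, -0.92 in PK19 (limma adjusted p = 0.0095), 0.25 in PK25 and 0.56 in V8, under 2-fold in each.

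Other receptor chains of the class I cytokine family gave the remaining calls. These were 3 of 26 in PK7 and 1 of 26 in both PK19 and V8, beside 2.3%, 2.89% and 0.98% of all probe sets. IL7R, the IL-7 receptor chain, had 8.29, 7.09 and 8.53 in PK7 against 6.28, 5.29 and 6.05 in V22, and 7.15, 7.82 and 7.59 in V8 against 5.84, 6.16 and 5.89 in V22. It rose by 2.09 in PK7 (SE 0.30, limma adjusted p = 4.6e-05) and by 1.55 in V8 (adjusted p = 0.0019), and was at -0.0071 in PK19 and -0.32 in PK25. High IL7R was thus found in a parkin and a vector clone. These had the 2 highest IL13RA2 means, but were measured in different series. PK25, whose IL13RA2 arrays overlapped those of PK7, had no rise of IL7R. A link between IL7R and IL13RA2 was not tested.

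GHR, the growth hormone receptor gene, had 4.76, 5.21 and 5.15 in PK7 and 6.19, 6.26 and 6.32 in PK19, against 7.53, 7.40 and 7.48 in V22. It fell by 2.44 in PK7 (SE 0.14, limma adjusted p = 2.4e-10) and by 1.21 in PK19 (adjusted p = 1.7e-06), and was at -0.28 in PK25 and -0.72 in V8 (adjusted p = 0.0015). PRLR, the prolactin receptor gene, was called in PK7 at 1.04 (adjusted p = 0.0044), with 5.99, 4.84 and 6.01 in PK7 against 4.69, 4.80 and 4.22 in V22. It was under 2-fold without PK7 set 1 (0.85), PK7 set 3 (0.84) or V22 set 6 (0.87), and was at 1.43 without PK7 set 2 (adjusted p = 3.4e-05). IL6ST, the gp130 chain shared by IL-6 family receptors and named after its values were seen, was at 0.81 in PK7, 0.74 in PK19 and 0.96 in V8 (adjusted p of 6.7e-05, 1.5e-04 and 3.0e-05) and at 0.22 in PK25, below 2-fold in each.

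**Figure D3:**
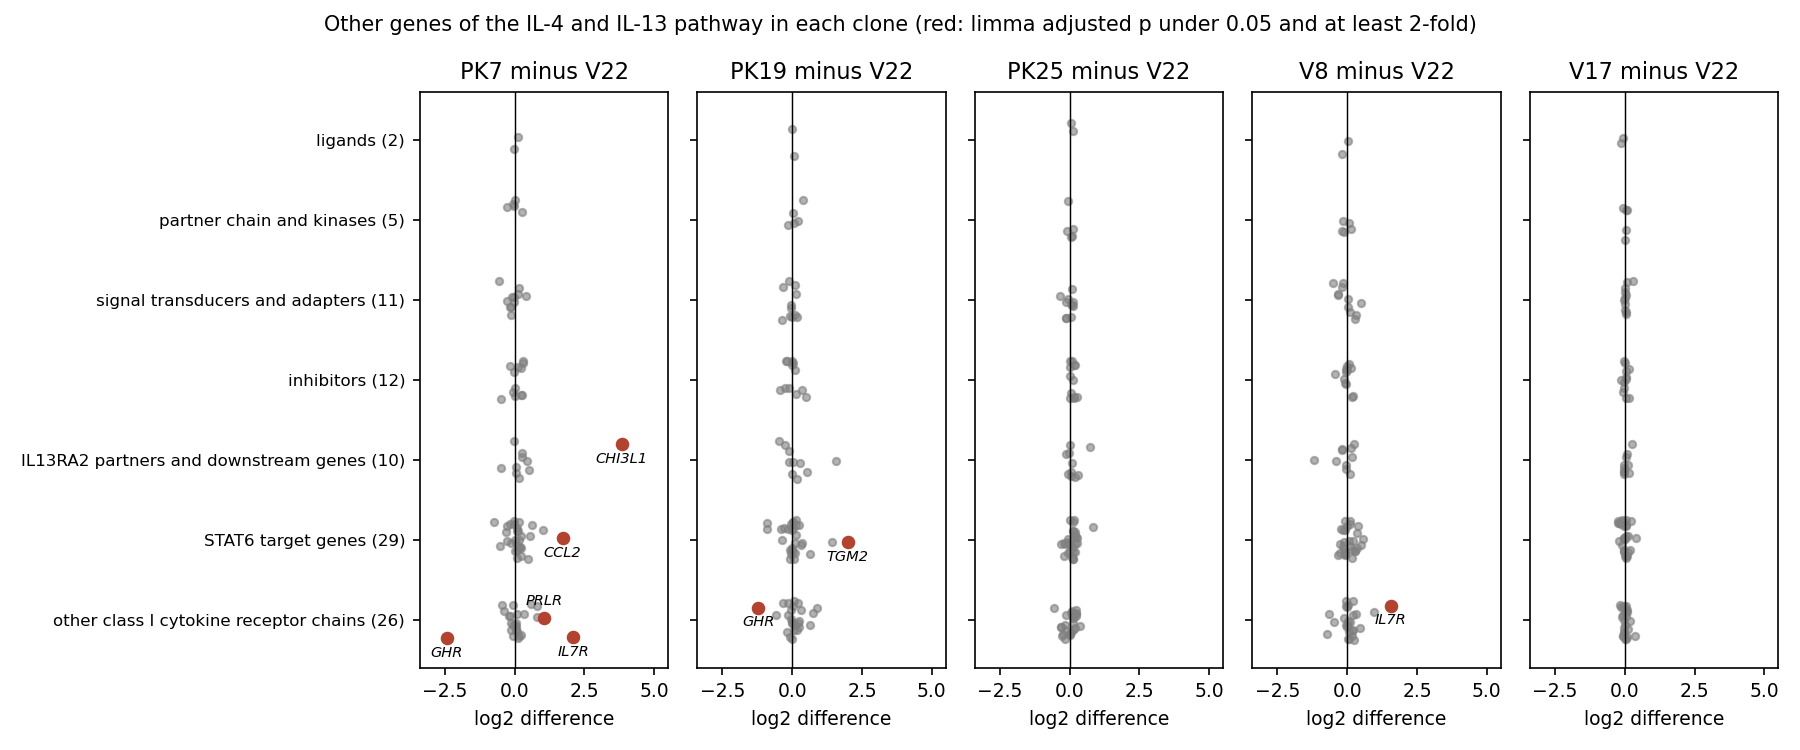
Log2 difference of each clone from V22 of its array series for the measured genes of 7 pathway lists, 1 panel per clone; each point is a gene, vertical position within a list is random, and red points passed limma's adjusted p with at least a 2-fold difference. Named points are CHI3L1, CCL2, IL7R, PRLR and GHR in PK7, TGM2 and GHR in PK19 and IL7R in V8.

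The genes whose pattern was most like that of IL13RA2 were sought among 1529 genes with a range of at least 1 log2 unit between clones, by Pearson's r over 21 arrays, each taken relative to V22 of its series. Arrays share clones, and IL13RA2 falls into 2 separate levels, so r mainly measures that split and carries no p. The highest values were those of FERMT1, an integrin activator gene (r = 0.93), AIFM2, a ferroptosis suppressor gene (0.92), and MANSC1 (0.92). They were followed by DSE, a dermatan sulfate epimerase gene (0.90), SLC35D2, a nucleotide sugar transporter gene (0.90), the small heat shock protein gene HSPB8 (0.90), GDPD3 (0.89) and CD163L1 (0.88). Among the 4 lowest were those of CYP2J2, an arachidonic acid epoxygenase gene (-0.96), the synaptic adhesion gene LRFN5 (-0.95) and the connexin gene GJB2 (-0.94). The choice of genes was not stable. Of the 12 genes most and least like IL13RA2, 3 were shared with Spearman's rank correlation and 7 with the second series alone. IL13RA1 had r = 0.54 and IL4R r = 0.35.

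These genes moved far less than IL13RA2. HSPB8, the widest of the 8 in PK19, differed from V22 by 2.58 in PK7, 2.61 in PK19, 1.24 in PK25, 2.17 in V8 and -0.03 in V17. LRFN5 differed by -2.23, -2.37, -2.05 and -2.21 in PK7, PK19, PK25 and V8, and by 0.06 in V17. The 12 genes lie on chromosomes other than X, with MANSC1, HSPB8 and CD163L1 on chromosome 12.

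**Figure D4:**
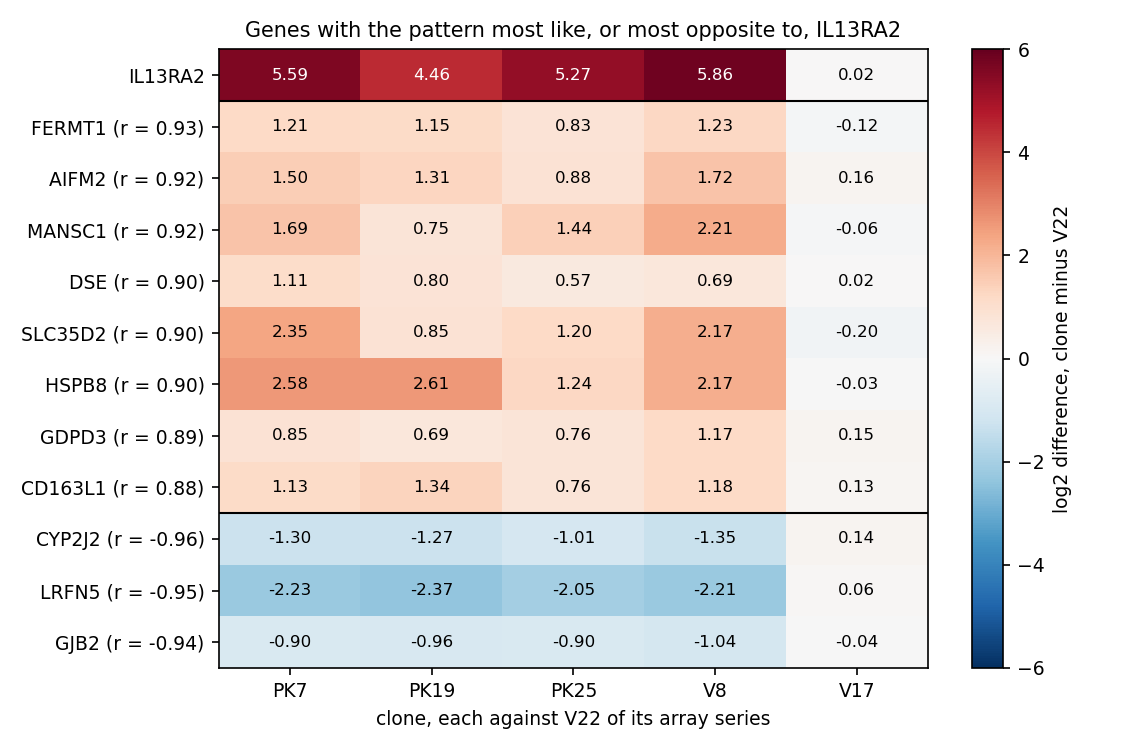
Log2 difference of each clone from V22 of its array series for IL13RA2, the 8 genes with the highest and 3 of the 4 genes with the lowest Pearson r to it over 21 arrays. IL13RA2 is at 4.46 to 5.86 in the first 4 columns, the 8 genes below it are at 0.57 to 2.61 there, and all genes shown are between -0.20 and 0.16 in V17.

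Across all probe sets, 7 were at least 2-fold above V22 in PK7, PK19, PK25 and V8 alike (0.026%), and 13 were at least 2-fold below in all 4 (0.0482%). IL13RA2 was the only one at least 16-fold above in all 4 clones (0.00371%). Its smallest difference among them was 22-fold, in PK19, and these contrasts entered its choice. Nothing is therefore read from its standing alone among the 7. The other 6, named after their values were seen, were the cytokine gene IL1B (1.95 to 3.63 over the 4 clones), the matrix metalloproteinase gene MMP3 (1.77 to 4.26), the complement gene C3 (1.13 to 5.05), SERPINB7 (1.43 to 4.20), the bradykinin receptor gene BDKRB1 (1.27 to 2.75) and HSPB8.

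Marker lists of other cell types were set beside this split. The summed intensity of 4 endothelial markers was 172 to 213 in PK7, 158 to 176 in PK19, 224 to 249 in PK25 and 329 to 352 in V8, against 483 to 780 on the arrays of V17 and V22. Of these markers only KDR, a VEGF receptor gene, was called, lower in PK7, PK19, PK25 and V8 by 2.26, 2.65, 1.77 and 1.05. PECAM1, CDH5 and VWF differed from V22 by -0.21 to 0.43. The summed intensity of 7 leukocyte markers was 183 to 244 in the clones with high IL13RA2, against 191 to 213 in V17 and V22, and that of 4 epithelial markers was 276 to 393, against 275 to 392. Of 4 fibroblast and mesenchymal markers, COL1A1 and COL1A2 fell in PK19 by 1.37 and 2.29, where the highest of the 4 was at 0.20. None of the 4 was called in any other clone. Their summed intensity was 6699 to 11170 in PK7, 1522 to 2296 in PK19, 4661 to 5713 in PK25 and 4472 to 6371 in V8. On the arrays of V17 and V22 it was 6146 to 7048. The part of these genes in the IL13RA2 levels was not tested.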

How the data were processed

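Total RNA of 6 U-87MG clones was hybridised to 21 arrays, 9 of parkin clones and 12 of vector clones. The authors deposited intensity values on a linear scale, made with RMA per the submitters' processing notes (no version given); joint normalization of the 21 arrays is not given in the sources used here. Log2 values were taken with no filter; arrays have no counted depth, so their number limits the precision. Gene symbols came from the array's annotation table, with 1 symbol for 19305 of 26947 probe sets.

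Each clone was set against V22 of its series in 1 limma 3.58.1 fit (lmFit, eBayes, R 4.3.3) with a mean per clone and series, Benjamini-Hochberg adjusted over all probe sets, calls at adjusted p under 0.05 and at least 2-fold. No label ties the 3 arrays of a clone to separate cultures, so the p-values reflect array spread alone, which may be technical. SEs of the receptor chains against V22 come from the arrays of that clone and of V22 alone. All other SEs are limma's, which draw on every array and probe set, so the kinds are not comparable. Parkin and vector clones were compared on 6 clone means. The vector means share their link through V22, so those p-values do not hold all of the error. Both fits were run on simulated data with array noise and known changes, but with no other differences between clones. That run does not show how the test of parkin against vector clones behaves with the spread of real clones.

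The genes, lists and alternatives were chosen with earlier results of these data known. Genes were named by a rule that took all 3 receptor chains, up to 4 called genes per list and clone (or the 2 with the largest difference), the 8 genes most like and 4 least like IL13RA2, and 3 measured neighbours on each side; 1 of the 4 least like is not reported here. Alternatives covered array centring, quantile normalization, the V22 arrays used as reference, dim probe sets, the variance model, the adjustment for the series and each array or clone left out.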

Additional observations from a re-analysis of the deposited data

Results flagged for a closer look

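LRCH2, the measured gene next to IL13RA2, moved in opposite directions in clones that all had high IL13RA2. In PK19 it was 2.53 higher relative to V22 than V8 was (SE 0.26, limma adjusted p = 2.8e-06 for the difference between the clones) and 3.05 higher than PK25 (SE 0.19, adjusted p = 5.0e-10). The difference of PK7 from PK19 was -2.92 (SE 0.19, adjusted p = 8.8e-10). All 3 arrays of PK19 lay above V22, and all 3 arrays of PK7, PK25 and V8 below it. A search for stray arrays was run in V22 alone, as the other clones had too few arrays for it. No array stood far from the others in the 6 arrays of V22 for the 3 receptor chains or for 7 further genes. Those 6 arrays pool both series, and a difference between the series, as for CHI3L1, can hide a stray array.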

How the results depend on the processing

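The IL13RA2 differences from V22 kept their direction and stayed at least 16-fold in PK7, PK19, PK25 and V8 under every alternative run. With V22 of the other series they were 5.40 (PK7), 4.26 (PK19), 5.08 (PK25), 6.05 (V8) and 0.22 (V17). Leaving out single arrays gave 5.51 to 5.69 in PK7, 4.37 to 4.50 in PK19, 5.17 to 5.39 in PK25, 5.80 to 5.94 in V8 and -0.04 to 0.11 in V17. The IL13RA1 difference in PK7 was 0.51 with arrays centred on their medians, 0.59 after quantile normalization and 0.61 with the other V22 arrays. Between parkin and vector clones, leaving out single clones gave 2.17 to 5.10 for IL13RA2, and IL4R was at 0.0658 with V22 of the second series alone. Counts of called pathway genes without the 2-fold limit were 18 for PK7, 17 for PK19, 1 for PK25 and 11 for V8. With that limit, the counts were 5 in PK7, 2 in PK19 and 1 in V8 on all arrays. With the limit kept and single arrays left out, they were 3 to 5 in PK7, 2 to 4 in PK19 and 1 to 2 in V8. The extremes came without V22 set 6 for PK7 (3), without V22 set 5 or PK19 set 3 for PK19 (4) and without V8 set 1 or 3 for V8 (2). Without PK7 set 2 and PK25 set 3, an alternative chosen after seeing the data, the count in PK19 was 4. V8 and V17 share set numbers with V22, and arrays of the same number correlated at 0.0591 to 0.216 in their deviations, above the -0.141 to 0.0533 of different numbers. In the second series only the parkin clones were compared with each other, and the ranges were -0.0917 to 0.381 and -0.365 to 0.323. As not every pair passed 0.1, the number was not taken to pair the arrays. In the first series the ranges did not overlap, which hints at a pairing. V22 sets 4 to 6 carry other numbers than the parkin arrays and were not compared with them. No block was run in the second series, so a pairing there was not tested. The p-values of the main fit take no account of a pairing. A replicate block on the set number in the first series gave a count of 2 in V8 and 0 in V17. Probe sets called between V22 of the series were 17 with a trended and robust variance and 0 to 5 without single arrays. Of the 12 genes most and least like IL13RA2, 3 were shared with Spearman's rank correlation and 7 with the second series alone, where fewer arrays enter. The calls of CCL2 and PRLR in PK7 were lost under 6 and 4 of the alternatives, with adjusted p from 0.0075 to 0.114 and from 3.4e-05 to 0.036, where PRLR fell under 2-fold. Averaging several probe sets per receptor chain could not be run, as each has 1. The cause of these shifts was not tested.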
